A study of Mus musculus with 5 samples.

Results

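T cells of the bone marrow (BM) were chosen by their CD3 transcripts. A member is a BM cell with at least 2 unique molecular identifiers (UMIs, each standing for 1 captured transcript) of Cd3d, Cd3e and Cd3g together and no UMI of Cd79a, a B cell receptor gene, where a kept cell shows 200 genes or more and draws under 20% of its UMIs from mitochondrial genes. Of 21520 kept BM cells, 5497 met this rule, namely 1188 of 7104 naive cells, 1007 of 6126 on day 2 after CTX and 3302 of 8290 on day 7. The label held for a minority of them. When 19 T lineage genes outside the rule were counted, most members carried none of these transcripts, and most met the rule through Cd3d alone. The results therefore separate the members that carried T lineage transcripts, 150, 324 and 13 cells, from those that did not.

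The study profiled BM by droplet single-cell RNA sequencing during the myeloid recovery that follows cyclophosphamide (CTX), an alkylating drug that damages DNA. Cells were labelled as CD45+ BM mononuclear cells. BALB/c mice, 4 to 8 weeks old when bought, received 1 intraperitoneal injection of CTX at 150 mg/kg, and BM was collected on day 2 (D2 CTX) or day 7 (D7 CTX), while naive mice were untreated. Cells of 3 mice were pooled into 1 library per condition after lysis of red blood cells and removal of dead cells, so the mice cannot be separated. With 1 library per condition no test of a difference was possible, and the 95% intervals given here are exact and cover counting error only. All shares are shares of kept cells and not numbers of cells per animal, and a rise of one class cannot be told apart from a fall of the others. A kept cell had a median of 3954 UMIs in the naive, 3034 in the D2 CTX and 7190 in the D7 CTX library. Kept cells with the same barcode numbered 6 between naive and D2 CTX, 15 between naive and D7 CTX and 10 between D2 and D7 CTX, and none of them was T lineage-positive in both libraries.

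The CD3 gamma, delta and epsilon chains, encoded by Cd3g, Cd3d and Cd3e, form signalling dimers that carry the T cell receptor to the surface. These dimers take part in its signalling together with the kinases Lck and Zap70. Marrow holds few T cells compared with the spleen or lymph nodes. They include recirculating naive cells, memory cells that stay near stromal niches rich in survival cytokines, and regulatory T cells. Resting lymphocytes depend on IL-7 or IL-15 and on BCL2 for survival, and respond to DNA damage through p53, whose targets arrest the cycle or trigger death.

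In the GRCm38 annotation the CD3 genes lie in a row on chromosome 9. Cd3g occupies chr9:44969572-44980431 on the minus strand, Cd3d chr9:44981786-44987339 on the plus strand and Cd3e chr9:44998740-45009627 on the minus strand. The gap between Cd3g and Cd3d is 1354 bases and that between Cd3d and Cd3e is 11400 bases. The gene models Gm48719, antisense, and Gm48720 overlap Cd3e, whereas no other annotated gene overlaps Cd3d. Cd79a, used to set B cells aside, lies at chr7:24897381-24902197.

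The members split into 2 kinds by the T lineage list, which holds genes such as Trac, Trbc1 and Trbc2, the constant regions of the T cell receptor, Lck, Cd2, Thy1 and the transcription factors Tcf7 and Bcl11b. No UMI of the 19 genes was found in 956 naive, 605 D2 CTX and 3086 D7 CTX members. At the other end, 144, 286 and 17 members carried 12 or more. Between 3 and 11 UMIs lay 25, 67 and 8 members, with 6, 5 and 12 at exactly 2 UMIs and 1, 3 and 4 at exactly 3. The border was set at 3 UMIs after these values were seen. Above it stood 169 naive, 353 D2 CTX and 25 D7 CTX members. Of these, 19, 29 and 12 also drew over 5% of their UMIs from lists of other cell types and were set aside as mixed profiles, which left the 150, 324 and 13 cells called T lineage-positive. Since the T lineage genes chose these cells, their own levels in them are given only as a description.

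**Figure D1:**
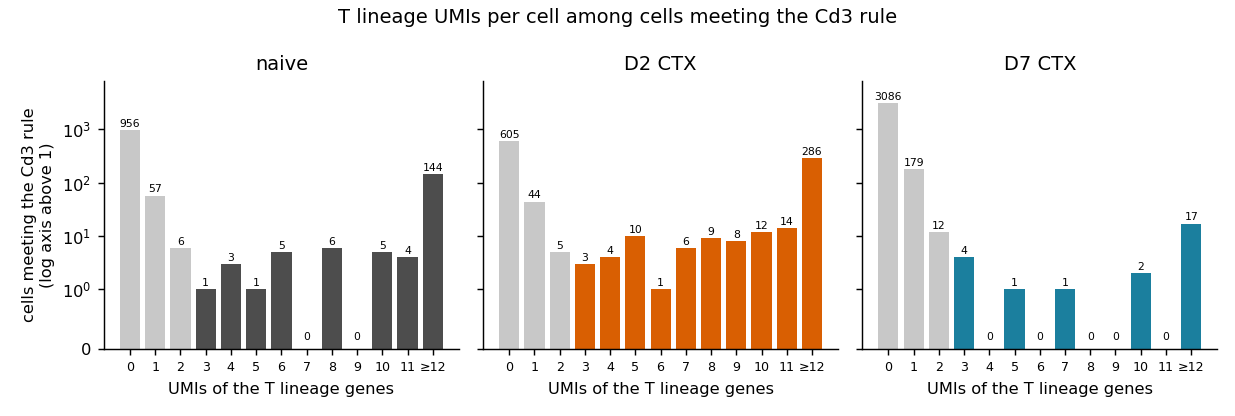
Cells meeting the Cd3 rule (y, log axis above 1) by their UMIs of the 19 T lineage genes (x) in each library, with grey bars below 3 UMIs. Most members sit at 0 to 2 UMIs or at 12 or more, with 25, 67 and 8 between, and at D7 CTX 3086 of 3302 members sit at 0.

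T lineage-negative members numbered 1019, 654 and 3277. They met the rule with Cd3d UMIs alone in 98.0%, 97.6% and 97.7% of cells. Trac, a gene of the list whose low count chose these cells, was at 0 UMIs in all 3 libraries. Over these cells Cd3e reached only 3, 2 and 0 UMIs and Cd3g 20, 16 and 79 UMIs, beside 2959, 1950 and 11336 UMIs of Cd3d. Their most abundant transcripts were the calprotectin genes S100a8 and S100a9. S100a8 made up a median of 19.0%, 18.1% and 19.7% of their UMIs, against 0.0758%, 0.195% and 0.0819% in T lineage-positive members. The 9 genes of the neutrophil list summed to 482727, 391127 and 499331 counts per 1000000 UMIs (CPM) in them and to 2345, 5447 and 3118 CPM in T lineage-positive members, where the 5% limit on lists of other cell types, this one included, had capped it.

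Cd3d followed the calprotectin content of a cell across the whole marrow, also where the rule played no part in choosing cells. Among all kept cells with fewer than 3 T lineage UMIs, those with less than 0.1% S100a8 held Cd3d at 0.883 CPM (naive), 0.460 CPM (D2 CTX) and 0.441 CPM (D7 CTX). In cells with 20% S100a8 or more it stood at 285, 284 and 319 CPM. Cells with at least 10% S100a8 held 242 CPM (235 to 250) in the naive library, 222 CPM (214 to 231) on day 2 and 250 CPM (246 to 255) on day 7. Cd3e was found with 0, 1 and 0 UMIs in these cells and Cd3g with 1.58, 1.97 and 1.70 CPM. The Cd3 rule was met by 33.4%, 28.7% and 50.9% of them, beside a D7 CTX library sequenced to more UMIs per cell. T lineage-positive members, whose Cd3 levels the rule itself used in choosing them, held Cd3d at 760, 603 and 444 CPM, Cd3e at 637, 426 and 402 CPM and Cd3g at 754, 563 and 581 CPM.

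**Figure D2:**
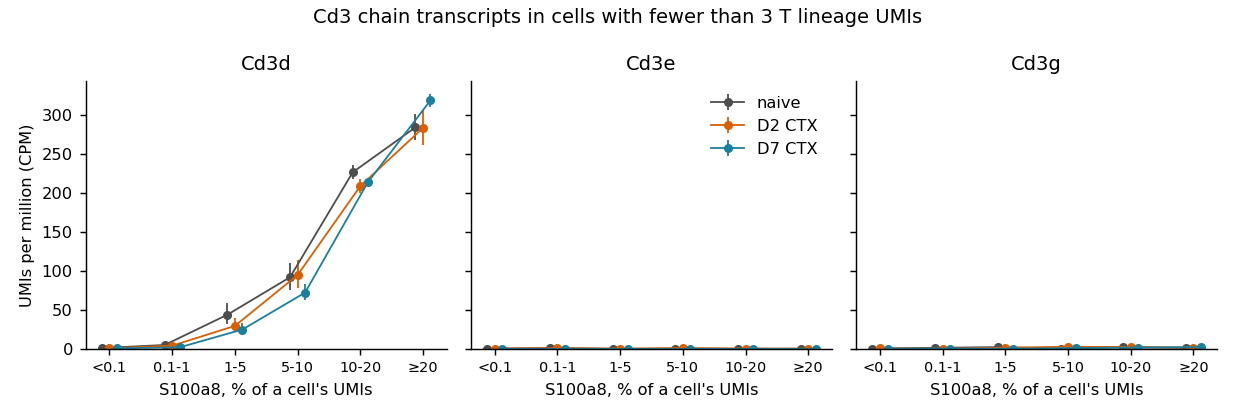
Cd3d, Cd3e and Cd3g in CPM (y) over kept cells with fewer than 3 T lineage UMIs, by the share of a cell's UMIs from S100a8 (x), with lines for exact 95% counting intervals. Cd3d climbs from below 1 CPM to 285, 284 and 319 CPM in the highest class, while Cd3e and Cd3g stay near 0 in every class.

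Members just inside the rule were mostly of the T lineage-negative kind. With a Cd3 sum of exactly 2 UMIs, at least 3 T lineage UMIs were carried by 27 of 536 members before CTX, 61 of 384 on day 2 and 5 of 1165 on day 7. Just outside, with a sum of 1 UMI, these were 24 of 899, 63 of 700 and 9 of 1461 cells. With a sum of 5 or more they were 108 of 226, 185 of 262 and 12 of 734. The chain sum alone thus did not separate the kinds. A further 63, 57 and 25 cells had at least 2 Cd3 UMIs and were left out for a Cd79a UMI.

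At full depth the share of cells meeting the Cd3 rule was level at day 2 and higher at day 7, and the kinds of member moved in opposite directions at that depth. All members made up 16.7% (15.9 to 17.6) of the naive library, 16.4% (15.5 to 17.4) on day 2 and 39.8% (38.8 to 40.9) on day 7. With each cell thinned to 1000 UMIs the log2 ratio of this share over naive was 0.30 at day 2 and turned to -0.28 at day 7. T lineage-positive members made up 2.11% (1.79 to 2.47), 5.29% (4.74 to 5.88) and 0.157% (0.0835 to 0.268). The log2 ratio of the T lineage-positive share was 1.32 (1.04 to 1.61) at day 2 and -3.75 (-4.69 to -2.93) at day 7. T lineage-negative members made up 14.3%, 10.7% and 39.5%, with log2 ratios of -0.43 (-0.57 to -0.28) and 1.46 (1.36 to 1.57). Other lymphocytes are given for comparison. B lineage cells, with at least 2 Cd79a UMIs and no Cd3 UMI, made up 27.8%, 26.8% and 2.52%. Natural killer (NK) cells, with at least 2 UMIs of the receptor genes Ncr1 and Klre1, made up 1.04%, 1.47% and 0.338%. Among T lineage-positive, B lineage and NK cells together, the T lineage-positive share was 6.82% before CTX, 15.8% on day 2 and 5.20% on day 7.

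**Figure D3:**
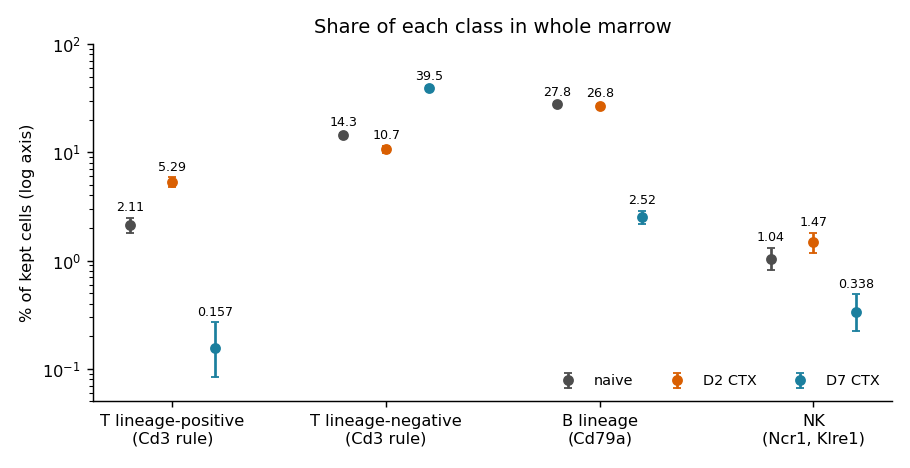
Percent of kept cells (y, log axis) that were T lineage-positive members, T lineage-negative members, B lineage cells or NK cells in each library, with exact 95% counting intervals as bars. T lineage-positive members go from 2.11% to 5.29% and then 0.157%, while T lineage-negative members go from 14.3% to 10.7% and then 39.5%.

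Cells with a UMI of Cd8b1, the beta chain of the CD8 co-receptor, outnumbered those with a UMI of Cd4 in naive and D2 CTX BM. How often a transcript of each gene was captured was not measured, so the ranking holds for captured UMIs only. Among T lineage-positive members, Cd4 alone was found in 16 naive, 48 D2 CTX and 5 D7 CTX cells and Cd8b1 alone in 45, 110 and 1, with 1, 1 and 0 cells holding both. The remaining 88, 165 and 7 cells had no UMI of either. Of the cells with either gene, Cd8b1 was found in 46 of 62 naive cells (74.2%, 61.5 to 84.5) and in 111 of 159 D2 CTX cells (69.8%, 62.0 to 76.8). With each cell thinned to 1000 UMIs the shares were 73.5% and 72.9%, and 79.5% and 72.5% in another random thinning. At day 7, 1 of 6 cells held Cd8b1. Over all kept cells the share with Cd4 alone was higher at day 2 by a log2 ratio of 1.80 (0.96 to 2.71) and that with Cd8b1 alone by 1.50 (0.99 to 2.04), intervals that overlap. In B lineage cells, which should lack these co-receptors, Cd4 was found in 0.152% and 0.122% and Cd8b1 in 0.152% and 0.0609% of naive and D2 CTX cells, at median depths of 2882 and 2568 UMIs beside 2848 and 3082 in T lineage-positive members. T lineage-negative members held neither gene in any naive cell, and Cd4 in 1 and Cd8b1 in 3 of 654 cells at D2 CTX.

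Receptor and subset genes were counted cell by cell in T lineage-positive members. Cells with a UMI of the beta constant gene Trbc1 alone, Trbc2 alone and both numbered 10, 48 and 66 in naive and 28, 116 and 123 in D2 CTX BM, when cells with Ncr1 or Klre1 were left out. Foxp3, which defines regulatory T cells, was found in 14 of 150 naive (9.33%) and 33 of 324 D2 CTX cells (10.2%) and in 0 of 13 at D7 CTX, where 3 counts of the total would allow a share of cells with a Foxp3 UMI of up to 23.1% and the exact 95% limit is 24.7%. Among B lineage cells, which should lack it, it was found in 1 of 1976 naive and 0 of 1643 D2 CTX cells. Of the Foxp3 cells, 3 of 14 and 12 of 33 also held a Cd4 UMI, and 0 and 2 held a Cd8b1 UMI. A UMI of the NK receptor genes Ncr1 or Klre1 was found in 24 of 150 naive cells (10.5 to 22.9%) and 39 of 324 D2 CTX cells (8.70 to 16.1%). Trac was present in 2 and 16 of these cells, and Trbc1 in 19 and 23, beside a Trbc1 UMI in 71.6% and 67.8% of NK cells. Whether they are T cells or NK cells was not tested. The granzyme gene Gzma stood at 1800 and 681 CPM in them and at 5.75 and 7.51 CPM in the rest. Values without cells with Ncr1 or Klre1 are therefore also given for several genes below, though not for others, among them Prf1, Ube2c, Mki67, Lgals1 and Capg. Recombination genes of immature T cells were nearly absent, with no Rag1, Rag2, Ptcra or Dntt UMI in naive cells and 2, 1, 0 and 6 UMIs of them in D2 CTX cells. Variable segments were sparse, at 16, 44 and 9 UMIs of Trav and 20, 29 and 1 UMIs of Trbv genes. The 5 most abundant Trbv segments were Trbv20 with 4 naive and 3 D2 CTX UMIs, Trbv12-2 with 1 and 5, Trbv13-1 with 1 and 5, Trbv13-2 with 3 and 3 and Trbv19 with 2 and 4.

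Gene expression was compared between D2 CTX and naive BM on the summed UMIs of each class of cells. A gene was tested where the 2 libraries held at least 50 UMIs, and it was counted as higher or lower where the log2 ratio of CPM + 1 was at least 1 in size and the counting interval of the CPM ratio left out 0. Over all members, 760 of 8755 genes were higher (8.68%) and 59 lower (0.674%), with a median log2 ratio of 0.36. Scaled by size factors, which bring that median to 0, 280 were higher and 120 lower, so that 70.0% of calls were higher in place of 92.8%. This comparison mixes the 2 kinds of member, whose proportions differed between the libraries. Of the 19 T lineage genes 10 were higher in all members, with a median of 1.08. The 12 highest genes of all members were Pf4, Phlda3, Siglech, Gm10076, Tnfsf8, Cdkn1a, Gm42047, BC117090, Klk1, Bcl2, Ccng1 and Zmat3, among them targets of p53 and the survival gene Bcl2. For the platelet gene Pf4, 1 cell held 78.5% of the D2 CTX UMIs. The lowest were led by red cell genes such as Car1, with 202 UMIs in 30 naive cells and 4 in D2 CTX BM.

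Among T lineage-positive members, 184 of 4568 genes were higher at day 2 (4.03%) and 59 lower (1.29%), with a median log2 ratio of 0.07. Size factors gave 148 and 78, or 65.5% of calls higher in place of 75.7%. Without cells with Ncr1 or Klre1, where 3757 genes were tested, 105 of the 184 and 18 of the 59 were called again. With cells weighted equally, 130 of the 184 and 31 of the 59 were. A cell had a median of 2848 UMIs before and 3082 UMIs on day 2, with median mitochondrial shares of 5.42% and 6.82%. Higher genes were found among survival and death genes of the BCL2 family, p53 targets, feedback genes of cytokine receptors, immediate early genes and a few interferon-stimulated genes.

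Bcl2, whose product holds back mitochondrial apoptosis, was higher and found in a larger part of the cells. It was present with 182 UMIs in 74 of 150 naive cells (366 CPM), 1487 UMIs in 278 of 324 D2 CTX cells (1335 CPM) and 27 UMIs in 7 of 13 D7 CTX cells (285 CPM). The log2 ratio at day 2 was 1.87 (1.64 to 2.10). It was higher in every class of lymphocyte compared, at 1.33 in Cd4 cells, 1.77 in Cd8b1 cells, 1.52 in B lineage and 1.40 in NK cells. The B lineage class did not hold the same makeup of cells in both libraries, with Mki67 found in 31.1% and 3.71% and Il7r in 55.3% and 21.1% of its naive and D2 CTX cells. The part of this in the B lineage ratios was not tested. Genes of the family that promote death were higher as well. Bcl2l11, which encodes BIM, had 21 UMIs in naive and 129 in D2 CTX cells, which put it at 1.44 (0.78 to 2.20). Bbc3, which encodes PUMA, had 12 and 55 UMIs and stood just past the border (0.12 to 2.07). Mcl1, another survival gene, did not pass at 0.49. Of the 6 BCL2 family genes tested 3 were higher and 0 lower, with a median of 0.94.

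Several targets of p53 were higher. Of 23 listed, 11 had enough UMIs, and of these 5 were higher and 0 lower, with a median of 0.89 beside 0.07 for all genes. The 5 were Cdkn1a, which encodes the cycle inhibitor p21, Ccng1, Trp53inp1, Ei24 and Bbc3. Cdkn1a had 4 UMIs in 4 naive cells and 57 UMIs in 25 D2 CTX cells, which put it at 2.53 (1.24 to 4.59), and 0 UMIs at D7 CTX. A single D2 CTX cell held 26.3% of its UMIs. Ccng1, which encodes cyclin G1, went from 40 UMIs in 33 cells (80.4 CPM) to 212 UMIs in 124 cells (190 CPM), a log2 ratio of 1.23 (0.75 to 1.77). Trp53inp1 went from 38 to 195 UMIs, at 1.19 (0.69 to 1.74), and Ei24 from 15 to 74 UMIs, at 1.11 (0.33 to 2.05). The death gene Bax was just below the border at 0.89 (0.48 to 1.32) and above it, at 1.36, without the cells with Ncr1 or Klre1. Phlda3 with 1 and 31 UMIs and Zmat3 with 3 and 45 stayed below the minimum. In B lineage cells, where 8.16% of all tested genes were higher and 6.14% lower, 10 of 20 genes of the list were higher, with a median of 0.95. In NK cells, with 5.14% of all genes higher and 2.25% lower, these were 6 of 8, with a median of 1.50. Ccng1 was at 1.90 in B lineage and at 2.99 in NK cells.

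The p53 decamer, the motif of which a pair makes up a p53 binding site, is shown in the RefSeq promoters of Cdkn1a and Ccng1, since both were among the 5 p53 targets higher in T lineage-positive members. Windows run from 250 bases before to 50 bases after a transcript start in GRCm38.p6 and are written 5′ to 3′ on the gene's strand, with matches on either strand in capitals. Cdkn1a has 2 starts in the table, and only the window of the upstream start, at chr17:29090729-29091028 on the plus strand, held matches. The window of Ccng1 lies at chr11:40755237-40755536 on the minus strand.
Cdkn1a: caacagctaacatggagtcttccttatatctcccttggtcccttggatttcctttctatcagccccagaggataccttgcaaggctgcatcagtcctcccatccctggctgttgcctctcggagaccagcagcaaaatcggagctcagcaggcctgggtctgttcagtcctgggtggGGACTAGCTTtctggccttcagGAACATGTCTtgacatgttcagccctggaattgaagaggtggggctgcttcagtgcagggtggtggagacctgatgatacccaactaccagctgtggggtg
Ccng1: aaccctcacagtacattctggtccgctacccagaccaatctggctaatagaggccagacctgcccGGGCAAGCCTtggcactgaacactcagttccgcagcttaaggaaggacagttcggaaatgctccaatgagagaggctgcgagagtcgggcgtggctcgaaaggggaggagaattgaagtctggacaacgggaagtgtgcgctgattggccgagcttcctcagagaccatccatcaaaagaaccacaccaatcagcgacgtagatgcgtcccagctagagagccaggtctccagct
Cdkn1a held 2 matches, at bases 178 and 200 of the window, and Ccng1 held 1, at base 66. Only decamers that fit the motif at all 10 letters are marked, so an adjoining decamer with a mismatch stays in lower case. Which decamers form a pair was not tested. Of 32851 promoter windows 2745 (8.36%) held at least 1 match. Of the 23 genes of the p53 list 17 were matched to the table and 9 had a match in a window, among them Ei24 but not Bbc3. These genes had 24 windows, and a share of genes is not the same measure as the share of windows. These letters describe the windows and were not tied to binding.

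Feedback and growth genes downstream of cytokine receptors were higher in part. Of 23 genes of the cytokine receptor and JAK-STAT list 4 were higher and 0 lower, with a median of 0.18. These were the suppressors of cytokine signalling Cish, Socs1 and Socs3 and the IL-2 receptor alpha chain Il2ra. Cish went from 17 UMIs in 16 cells to 140 UMIs in 86 cells, a log2 ratio of 1.85 (1.15 to 2.70). Socs1 went from 33 UMIs in 24 cells to 265 UMIs in 155 cells, at 1.83 (1.32 to 2.41), beside 0.41 in B lineage cells. Socs3 was at 1.19 (0.41 to 2.12) and Il2ra at 1.07 (0.42 to 1.80), the latter at 0.82 without cells with Ncr1 or Klre1. The receptor genes Il7r and Il2rb did not pass, at -0.53 and 0.18. Outside the list, Ccnd2, which encodes cyclin D2, went from 352 to 884 CPM, at 1.33 (1.10 to 1.57), and was at 1.53 in B lineage cells.

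Tnfsf8 was among the highest genes, and a part of the immediate early genes was higher. Tnfsf8, which encodes the CD30 ligand, was found with 15 UMIs in 13 naive cells (30.1 CPM) and 275 UMIs in 140 D2 CTX cells (247 CPM), which put it at 2.99 (2.29 to 3.89). In B lineage cells Tnfsf8 had 3 and 9 UMIs and in NK cells 2 and 11, below the minimum. Lta, which encodes lymphotoxin alpha, had 2 UMIs in naive and 51 UMIs in 35 D2 CTX cells, and its log2 ratio was 3.22 with a wide interval (1.58 to 6.59), a gene chosen after its values were seen. Of 24 immediate early genes tested 6 were higher and 1 lower, with a median of 0.18. The growth regulator Myc went from 20 UMIs in 18 cells to 153 UMIs in 90 cells, at 1.75 (1.10 to 2.52), and the G protein regulator Rgs1 from 48 UMIs in 33 cells to 410 UMIs in 122 cells, at 1.92 (1.50 to 2.39). Egr1, Socs3, Klf6 and Ier3 were the others, of which Ier3 had 45.5% of its D2 CTX UMIs in 1 cell. Dusp2, a phosphatase gene, was lower at -1.13 (-1.51 to -0.76), and Junb and Jund did not pass at -0.07 and -0.36.

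**Figure D4:**
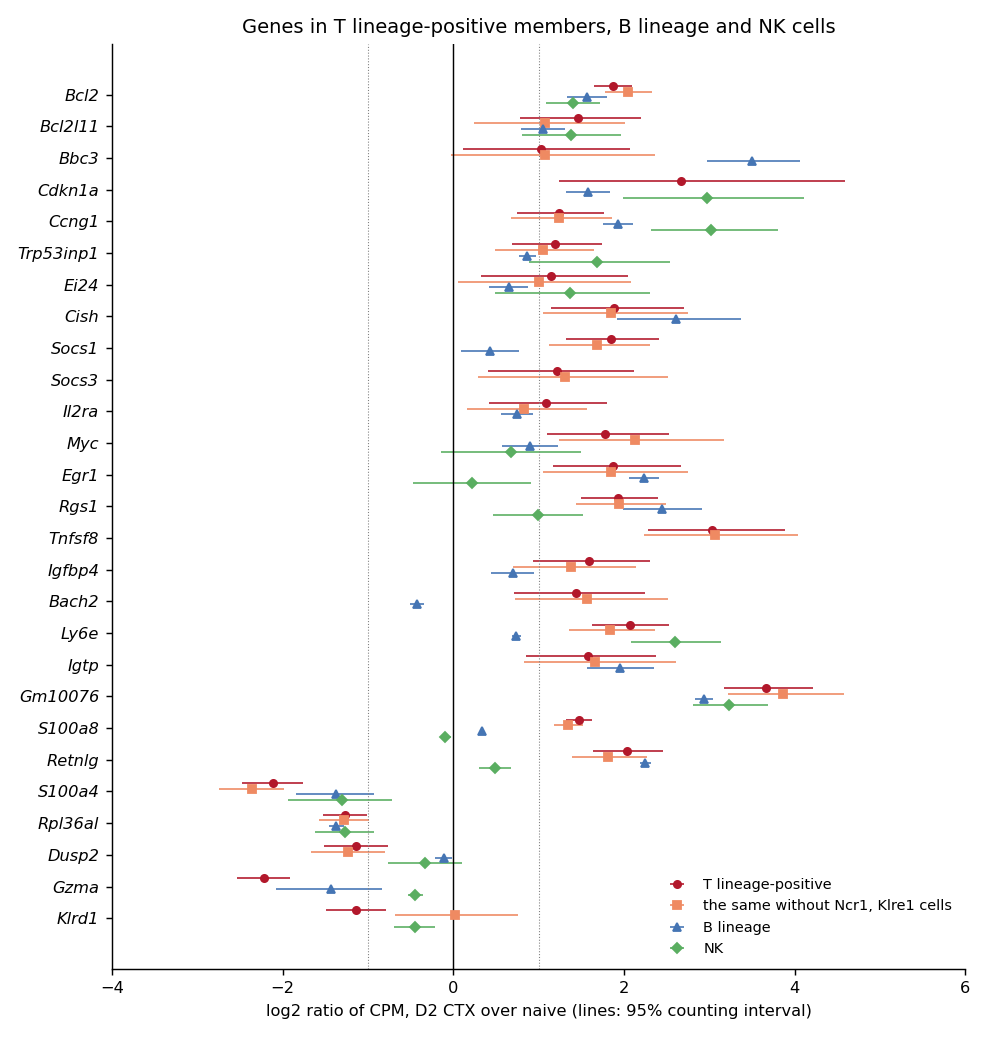
Log2 ratio of CPM, D2 CTX over naive and without an added 1 (x), for named genes (y) in T lineage-positive members, the same without cells holding Ncr1 or Klre1, B lineage and NK cells, where at least 50 UMIs were counted and neither library was at 0, with exact 95% counting intervals as lines and dotted lines at 1 and -1. Bcl2 and Gm10076 lie to the right in all classes, Rpl36al lies to the left in all, and Gzma and Klrd1 move to 0 or drop out when cells with Ncr1 or Klre1 are left out.

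A few interferon-stimulated genes were higher. In T lineage-positive members 4 of 25 tested passed and 0 lower, with a median of 0.46, and in B lineage cells 24 of 34, with a median of 1.41, a difference that was not tested. The 4 were Ly6e, Igtp, Isg15 and Slfn1. Ifitm1, not among the 4, stood highest in the ranking of T lineage-positive members, with 0 naive UMIs and 78 UMIs in 32 D2 CTX cells. Its lower counting limit was 3.21 on the log2 scale, and 1 cell held 35.9% of its D2 CTX UMIs. Ly6e went from 47 UMIs in 29 cells (94.4 CPM) to 441 UMIs in 186 cells (396 CPM), a log2 ratio of 2.06 (1.63 to 2.53), and Igtp, an interferon-inducible GTPase gene, from 18 to 120 UMIs, at 1.55 (0.85 to 2.38). Genes of MHC class I presentation did not pass, with 0 of 16 higher or lower and a median of -0.09, H2-D1 being at -0.58.

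Lists of T cell state held some called genes, beside 4.03% of all tested genes higher and 1.29% lower in T lineage-positive members. Of 16 genes of naive and circulating T cells 2 were higher and 0 lower, with a median of 0.12. These were Bach2, a repressor that keeps lymphocytes quiescent, with 18 and 109 UMIs at 1.41 (0.71 to 2.24), and Igfbp4, with 22 and 148 UMIs at 1.57 (0.94 to 2.30). Bach2 was at -0.42 in B lineage cells. The circulation gene Klf2 was at 0.03 and Satb1 at 0.81. The memory-associated list had 2 genes higher, Bcl2 and Bhlhe40, and 2 lower of 19, with a median of -0.46. S100a4, a calcium-binding protein gene, went from 193 UMIs in 36 cells (388 CPM) to 100 UMIs in 42 cells (89.8 CPM), a log2 ratio of -2.10 (-2.47 to -1.76), and was lower in B lineage and NK cells too, at -1.27 and -1.29. Lgals1, which encodes galectin-1, was at -1.14 (-1.37 to -0.92). Trafficking genes had 2 higher and 0 lower of 18, with a median of -0.14. These were Rgs1 and Ccr9, a homing receptor also found in plasmacytoid cells, with 5 UMIs in 4 cells and 53 in 25, while Cxcr4 was at 0.09.

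Values of effector genes differed with and without the cells that held NK receptor genes. Of 15 cytotoxic and effector genes 1 was higher and 3 lower, with a median of -0.64. Gzma was at -2.21 (-2.53 to -1.91), Prf1, which encodes perforin, at -1.24 (-1.88 to -0.64) and Klrd1 at -1.13 (-1.49 to -0.79). Gzma rested on 13 naive and 11 D2 CTX cells, with 35% and 31% of its UMIs in 1 cell each. Without cells with Ncr1 or Klre1, Klrd1 was at 0.01 and Gzma was left with 2 and 7 UMIs. The gamma delta receptor gene Trdc was at -0.95 with them and lower, at -1.83 (-2.46 to -1.26), without them, where 1 cell held 58.6% of its 58 naive UMIs. The chemokine gene Ccl4 was higher at 1.02, with 31.8% of its D2 CTX UMIs in 1 cell. Other lower genes were Cd7 at -1.55 (-2.04 to -1.10), Sh2d1a, which encodes the adaptor SAP, at -1.51 (-2.04 to -1.02) and Nrp1 at -1.59 (-2.29 to -0.96). Without cells with Ncr1 or Klre1, Cd7 was left with 13 and 23 UMIs, below the minimum, Sh2d1a was at -1.06 (-1.81 to -0.34) and Nrp1 at -1.98 (-2.70 to -1.33).

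Of 21 cell cycle genes 0 were higher and 2 lower in T lineage-positive members, with a median of -0.60. The 2 were Mki67, at -1.47 (-2.08 to -0.91) in 10 naive and 12 D2 CTX cells, and Ube2c, at -1.34, where single cells held 46.4% and 41.7% of the UMIs. Both values include cells with Ncr1 or Klre1, and in NK cells Mki67 was found in 37.8% before CTX and 13.3% on day 2. Without cells with Ncr1 or Klre1, where 4.29% of all tested genes were higher and 1.14% lower, the median of the cell cycle list was 0.02, with 2 of 10 genes higher. In B lineage cells 29 of 29 were lower, with a median of -2.17. Calls in other lists of T lineage-positive members follow, beside 4.03% of all tested genes higher and 1.29% lower. Of the ribosomal protein genes 1 of 81 was lower, Rpl36al, and of oxidative phosphorylation genes 1 of 80 was higher, Ndufs1. Among the 13 mitochondrial genes mt-Nd4l was higher at 1.06, and among 9 chaperones Hsph1 at 1.30. Of 26 genes of T cell receptor signalling Rasgrp1 was higher at 1.04 and Sh2d1a lower, with a median of 0.24. Of 8 regulatory T cell genes Il2ra was higher and Capg lower at -1.14, while Foxp3 was at 0.10 (-0.56 to 0.81). Inhibitory receptor genes (0 of 5), glucocorticoid-responsive genes (0 of 7) and GIMAP genes (0 of 8, a family of lymphocyte survival GTPases) had none, beside 6 of 8 GIMAP genes higher in B lineage cells.

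**Figure D5:**
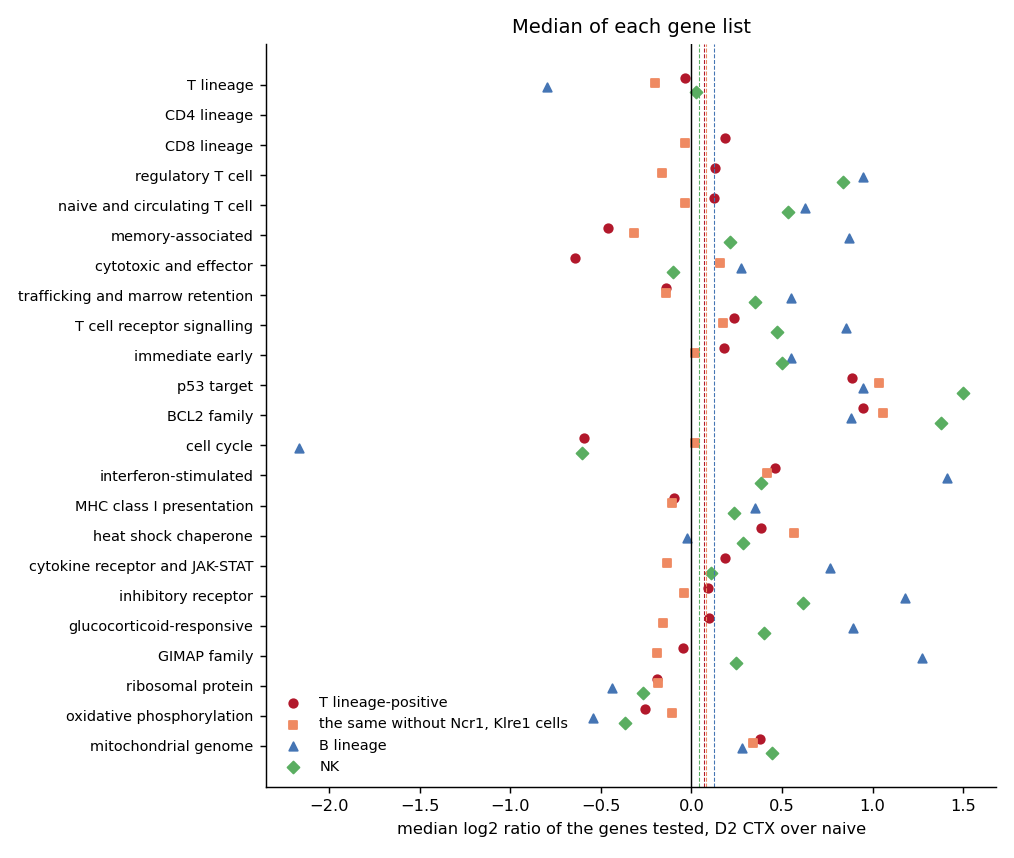
Median log2 ratio, D2 CTX over naive (x), of the tested genes of each list (y) in T lineage-positive members, the same without cells holding Ncr1 or Klre1, B lineage and NK cells, for lists with at least 3 genes tested, with dashed lines at the median of all genes tested in each class. The p53 and BCL2 lists lie to the right in all 4 classes, and the cell cycle list is at -2.17 in B lineage cells and at -0.60 in T lineage-positive members.

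Tnfsf8 and Gm10076 were among the 6 highest genes both in cells with Cd4 and in cells with Cd8b1. In the 16 naive and 48 D2 CTX cells with Cd4 alone, 31 of 469 genes were higher (6.61%) and 16 lower (3.41%). The 6 highest were Tnfsf8, Ccl5, Gm10076, mt-Nd4l, Gm10260 and Ccnd2. Tnfsf8 had 0 UMIs in naive and 68 UMIs in 28 D2 CTX cells, at least 6.59-fold higher against a floor of 3 counts over the naive cells, with a lower counting limit of 2.38 on the log2 scale. Ccl5 rested on 5 D2 CTX cells, with 38.5% of its UMIs in 1. Ccnd2 went from 7 to 123 UMIs at 2.35 (1.27 to 3.70) and Bcl2 from 17 to 147 UMIs at 1.33 (0.60 to 2.15). The 6 lowest were Rpl36al at -1.72, Smc6, Sec62, Arhgef1, Pnisr and Klf3, on 41616 naive UMIs in all.

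In the 45 naive and 110 D2 CTX cells with Cd8b1 alone, 96 of 1557 genes were higher (6.17%) and 15 lower (0.963%). The 6 highest were Gm10076, Rgs1, Tnfsf8, Socs1, Igtp and Myc. Bcl2 went from 73 UMIs in 30 cells to 676 UMIs in 104 cells, at 1.77 (1.42 to 2.14), and Socs1 from 7 UMIs in 7 cells to 123 UMIs in 65 cells, at 2.67 (1.61 to 4.04). Tnfsf8 had 5 and 101 UMIs, at 2.86 (1.63 to 4.55), and Lta 0 and 22, below the minimum. The 6 lowest were Gm11361, Cd27, Ly6c2, Ramp1, Mrps16 and Arl6ip5. Cd27, a co-stimulatory receptor gene, was at -1.39 (-2.08 to -0.72), Ly6c2, a surface marker of memory CD8 cells, at -1.35 (-2.04 to -0.68) and the effector chemokine gene Ccl5 at -1.11 (-1.31 to -0.91), in 13 naive and 27 D2 CTX cells. Of the p53 list 3 of 5 genes were higher in them, with a median of 1.03, and Cdkn1a had 2 and 7 UMIs. In cells with neither co-receptor 122 of 2801 genes were higher (4.36%) and 45 lower (1.61%).

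Transcripts of other cell types differed within T lineage-positive members. S100a8 was found with 423 UMIs in 136 of 150 naive and 2625 UMIs in 321 of 324 D2 CTX cells, at 1.47 (1.32 to 1.62), beside 0.34 in B lineage and -0.09 in NK cells. Its median share of a cell's UMIs was higher at day 2 in all 3 classes, at 0.0758% and 0.195% in T lineage-positive, 0.0656% and 0.223% in B lineage and 0.0644% and 0.198% in NK cells. The limit of 5% on lists of other cell types bears on this value, since without it S100a8 was at -0.22, S100a9 at -0.62 and Lcn2 at -0.49. Between 2% and 5% of UMIs from these lists were drawn by 0, 22 and 1 of the cells with at least 3 T lineage UMIs. Retnlg was at 2.03 and Lcn2 at 1.48, whereas the primary granule genes Elane and Prtn3 were lower, at -3.53 and -2.17. The monocyte list summed to 58.3 and 110 CPM, with Lyz2 its most abundant gene and Csf1r at 0 in naive cells. The B lineage list summed to 615 and 352 CPM, led by Igkc, and Ms4a1 was at 0 in naive cells. The erythroid list summed to 334 and 141 CPM, led by Hbb-bs. The plasmacytoid list summed to 46.2 and 179 CPM, and Siglech had 0 and 62 UMIs, the latter in 2 cells. The myeloid genes Ccl6, with 4 and 65 UMIs, and Alox5ap, with 6 and 68 UMIs, were also higher. The part of these transcripts in the results above was not tested.

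In T lineage-negative members a part of the p53 targets and interferon-stimulated genes was higher at day 2. Of 7504 genes 337 were higher at day 2 (4.49%) and 57 lower (0.76%), with a median of 0.27. Of 16 p53 targets 10 were higher and 0 lower, with a median of 1.48. Cdkn1a went from 39 UMIs in 29 cells to 574 UMIs in 145 cells, at 3.96, and Ccng1 from 126 UMIs in 113 cells to 952 UMIs in 238 cells, at 3.14 (2.93 to 3.48). Of 31 interferon-stimulated genes 15 were higher, with Ifi27l2a at 2.34 (2.24 to 2.47). Cytokine receptor and JAK-STAT genes (0 of 18) and immediate early genes (0 of 18) had none. Bcl2 was at 0.90, and Tnfsf8 had 0 and 4 UMIs.

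At day 7 the T lineage-positive members were 13 cells with a median of 5218 UMIs. Trac was found in 6 of the 11 cells without Ncr1 or Klre1 and Trbc2 in all 11. Bcl2 was found in 7 of the 13, Rgs1 with 55 UMIs in 6, Ccng1 with 8 UMIs in 5 and Cdkn1a with none. The proliferation gene Mki67 was found with 51 UMIs in 6 of the 13 cells, beside 10 of 150 naive and 12 of 324 D2 CTX cells. Cells of mixed profile made up 12 of the 25 members with at least 3 T lineage UMIs at day 7, against 19 of 169 in naive and 29 of 353 in D2 CTX BM.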

How the data were processed

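Cells of 3 mice per condition were pooled, and 1 10x Genomics 3′ library was made for each of the 3 whole BM conditions. Per the submitters' processing notes, the authors aligned reads with Cell Ranger 3.1 to mm10 and used Seurat 5.0. The deposited values are UMI counts per gene and barcode, not normalized, of 47086837 (naive), 34764874 (D2 CTX) and 68459527 (D7 CTX) UMIs over all deposited barcodes. From these, cells were filtered and chosen by the rule, and UMIs were summed per class and scaled to CPM. Log2 ratios are of CPM + 1, and their exact conditional 95% intervals are of the CPM ratio without the added 1. UMIs are molecules, and all intervals and floors cover counting error only. No test of a difference was run, since each condition is 1 library. Doublets were marked by scores from simulated doublets (404, 300 and 550 cells) and kept, with their removal as an alternative. Named genes were the 12 highest and 12 lowest in all members, the 6 highest and 6 lowest in Cd4 and Cd8b1 cells, called and abundant genes of 35 lists and the 5 most abundant Trbv segments. Listed apart were immunoglobulin and hemoglobin genes, Xist and genes under 10% of their level in other kept cells, S100a8 among them. Other genes named, such as Lta, Ccl6 and Nrp1, were chosen after their values were seen. Some genes are not reported here. Members and lists were chosen with earlier results of these data known. Scripts used Python 3.11.15, numpy 2.4.6, scipy 1.17.1, pandas 2.3.3 and scanpy 1.11.5.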

Additional observations from a re-analysis of the deposited data

Results flagged for a closer look

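Cells meeting the Cd3 rule were also found in the libraries of sorted CD11b+Ly6Chi monocytes, a gate that should hold no T cells, and these libraries enter no comparison above. They numbered 13 in naive and 36 in CTX sorted monocytes, and none of them carried 3 or more T lineage UMIs. Of the 36, 35 met the rule with Cd3d alone, as did all 13. In sorted cells with at least 10% S100a8, Cd3d stood at 228 and 317 CPM in naive and CTX libraries.

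At full depth the shares of T lineage-positive and T lineage-negative members moved in opposite directions at both times, with log2 ratios over naive of 1.32 and -0.43 at day 2 and of -3.75 and 1.46 at day 7. With each cell thinned to 1000 UMIs the day 2 ratio was 0.30 for all members and 1.14 for T lineage-positive members. At full depth 654 of the 1007 members at day 2 were T lineage-negative. The thinned day 7 ratio was -0.28 for all members, of which 3277 of 3302 were T lineage-negative at full depth, and -4.27 for T lineage-positive members. With 1 library per condition this difference was not tested.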

How the results depend on the processing

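Of the log2 ratios of named genes recomputed under the alternatives, 1273 stayed within their counting interval in T lineage-positive members, 47 moved past it and 7 reversed. In all members these were 344, 223 and 5. The tallies do not rank the classes, since genes and alternatives differ and the intervals are wider where fewer UMIs were summed. Alternatives that change only the minimum of UMIs leave a log2 ratio as it was and count as staying. The log2 ratio of the share of all members over naive at day 2, -0.02, was 0.15 with a Cd3 sum of at least 3 UMIs, 0.30 with each cell thinned to 1000 UMIs and 1.32 in T lineage-positive members. At day 7, 1.25 became 0.97 with a Cd3 sum of at least 1 UMI and 1.49 with at least 3, and reversed to -0.28 when thinned and to -3.75 in T lineage-positive members. The latter was -0.39 with T, B lineage and NK cells as denominator. Counted over UMIs in place of cells, the Cd8b1 share was 87.6% in naive and 80.1% in D2 CTX members, and 87.2% and 79.6% in T lineage-positive members. In all members, genes higher (760) and lower (59) became 319 and 39 with 5 CPM added, 1206 and 146 with no minimum, 280 and 120 with size factors (70.0% of calls higher, against 92.8%) and 417 and 102 with the 20 most abundant genes left out of the totals. Genes lower were 39 with at least 100 UMIs, and genes higher were 399 at the same makeup of Cd4 and Cd8b1 and 184 in T lineage-positive members. In those, 184 and 59 became 70 and 24 with at least 100 UMIs, 397 and 219 with no minimum and 280 and 127 with no limit on other cell types' lists. Genes lower were 33 without each gene's top cell, and size factors gave 148 and 78 (65.5% higher, against 75.7%).

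Single genes reversed in few cases. In all members Cd8a was at -0.046 at the same makeup, and in T lineage-positive members Icos was at -0.10, Smim1 at 1.48, Pf4 at -0.67 and Tcf7 at -0.060. Among those members, Lcn2 was at -0.49, S100a8 at -0.22 and S100a9 at -0.62 with no limit on other cell types' lists, and Spp1 at 1.65, Klrd1 at 0.015 and Gzma at 0.33 without cells with Ncr1 or Klre1. Spp1 was at 0.92 without its top cell. The causes were not tested. Alternatives that use T lineage genes, the list limit, Ncr1 and Klre1 or the top cell were chosen after seeing the data. No paired analysis was possible because each condition is 1 pooled library, and no replicate could be left out. The 13 cells at day 7 limit any statement on T cells at that time, and the 150 naive cells limit genes of low level.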

Other observations

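Gm10076 and Gm10260, predicted gene models, were higher at day 2 in all classes compared. In T lineage-positive members Gm10076 went from 33 UMIs in 27 cells to 940 UMIs in 278 cells, a log2 ratio of 3.65 (3.17 to 4.22), beside 2.92 in B lineage, 3.22 in NK and 3.62 in T lineage-negative cells. Gm10260 was at 2.08 in T lineage-positive members, 1.50 in B lineage and 1.68 in NK cells. The ribosomal protein gene Rpl36al was lower at -1.26, -1.37 and -1.26 in the same order. Whether reads of near-identical gene copies were split between such models was not tested.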
